A study of Mus musculus with 42 samples.

Results

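The low-flow change that remained when platelets were removed was measured in 4 of the 42 samples of the study. These were the 2 carotid intima libraries labelled low flow with anti-GPIba, an antibody to a platelet surface glycoprotein that depletes platelets, and the 2 labelled high flow with control IgG, chosen by their labels and not by any measured value. All came from male C57BL/6J (Jax) mice of 6 to 7 weeks in which the branches of 1 carotid artery had been tied (partial carotid ligation), so that flow fell in that artery and the contralateral artery carried high flow. Antibody was given once, by intraperitoneal injection at the time of ligation, and the intima was flushed out 48 hr later, with 3 to 5 arterial flushes pooled into each library. The high-flow libraries came from mice given IgG, so the comparison spans both flow and antibody, and a high-flow group with anti-GPIba was not analysed here. Because each library is a pool, and nothing in the labels says how pools were formed beyond their size, the p-values measure the spread between pools of 1 experiment.

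Arterial endothelium senses the drag of flowing blood. Steady high shear holds up the transcription factors Klf2 and Klf4 and, through them, genes that keep vessels relaxed and free of clots, whereas low or disturbed flow brings endothelial activation, recruitment of leukocytes and platelets, and renewed growth. Platelets that adhere to such a wall release growth factors and chemokines and help to capture leukocytes, so removing platelets can remove leukocytes as well, and their parts cannot be told apart in a low-flow artery of a depleted mouse.

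The 4 libraries held 12286104 to 18071720 expected counts. Of 17 endothelial markers, Pecam1, an adhesion molecule of endothelial junctions, was at 1584 and 1557 FPKM (a level scaled for transcript length and library size, computed here from the counts) with anti-GPIba and 2810.0 and 3147 FPKM at high flow with IgG. Robo4, a guidance receptor, and Kdr, the VEGF receptor 2, were the lowest, at 5.53 and 2.52 FPKM and 1.81 and 0.798 FPKM with anti-GPIba and 3.86 and 2.77 FPKM and 0.326 and 0.7304 FPKM at high flow. Ppbp, a chemokine precursor stored in platelets, was at 0.173 and 0.396 FPKM with anti-GPIba, 1.41 and 6.46 FPKM at high flow with IgG and 9.25 and 3.93 FPKM at low flow with IgG, so the anti-GPIba libraries lay below all 4 others. Its log2 fold change against high flow was -3.75 (edgeR quasi-likelihood test, adjusted p = 0.0344). Pf4, another platelet chemokine that macrophages also make, was at 8.26 and 23.7 FPKM with anti-GPIba, above 4.27 and 3.31 FPKM at high flow and below 29.2 and 32.1 FPKM at low flow with IgG, and neither difference was called (adjusted p = 0.0746 and 0.284). Gp1ba, the gene of the antibody's target, was at 5.99 and 4.09 FPKM with anti-GPIba, 5.04 and 5.304 FPKM at high flow and 2.42 and 1.42 FPKM at low flow with IgG. It did not follow Ppbp: it was called higher with anti-GPIba than with IgG at low flow (1.39, edgeR, adjusted p = 0.0371) and not called against high flow (-0.04, adjusted p = 0.969). Of 13 platelet genes tested, Ppbp was called lower against high flow and Selp, which endothelium makes too, higher, where 4.41% and 3.29% of all genes were called lower and higher, and no platelet gene, Ppbp included, stayed called with any 1 of the 4 libraries left out. The summed level of the endothelial markers was 5158 and 5258 FPKM with anti-GPIba and 7610 and 7339 FPKM at high flow, with Cdh5, Tek and Nos3 called lower and Emcn higher by edgeR, and its part in the results was not tested. At an unadjusted p under 0.05 in edgeR 8 of the 17 were lower and 2 higher, and DESeq2 called 9 lower on the 2 groups and 7 on all. With 1 library left out edgeR called 1 lower and 1 higher without IgG high-flow replicate 2 and none without any of the other 3. At low flow with IgG the summed level of the endothelial markers was 3473 and 3184 FPKM, below both other groups. Against that group Pecam1 and Tek were called higher with anti-GPIba (1.35 and 0.94 on the log2 scale, edgeR, adjusted p = 0.0304 and 0.0345). None was called lower, where 6.05% and 10.5% of all genes were higher and lower, and the part of this difference was not tested. In a bulk pool, fewer cells of a type and less RNA per cell cannot be told apart.

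Several features of the libraries bear on the comparison. All low-flow libraries of treated mice were sequenced in a run other than that of the high-flow libraries, so flow and run cannot be told apart in these mice, whereas the untreated low-flow and high-flow pools shared a run. The summed level of 10 skeletal muscle genes was 1.92 and 110 FPKM in the anti-GPIba libraries, and 0.830 and 1.41 FPKM in the IgG high-flow libraries, and that of 12 fat cell genes was 124 and 1057 FPKM against 225 and 353 FPKM, so anti-GPIba replicate 2 stood apart in both. Fold changes also fell with transcript length. The median log2 fold change of anti-GPIba low flow against IgG high flow was 0.51 in the shortest of 5 equal length bins and -0.46 in the longest, against 0.13 and -0.30 in the untreated pools. The IgG high-flow libraries themselves stood above those of the other high-flow group, from mice given PBS liposomes, in the longest bin, with a median log2 difference of 0.47, and 40 genes (0.298%) were called between these high-flow groups, 28 higher with IgG (0.209%) and 12 lower (0.0895%). With the length trend of each library taken out, a step chosen after seeing the data, 779 genes were called, beside 1032 as tested. Of the genes named here, Plac8, Emcn, Cdh5, Tek, Tyrobp, Smad7, Tgfb2, Col5a1, H2-Ab1, Relb, Epas1, Mbnl1, Calcrl and Cyp4b1 then lost their call against IgG high flow. Some of these stayed near the threshold with much of their size, at 1.64 for Cyp4b1 (adjusted p = 0.0541, beside 1.85 as tested), 1.32 for Emcn (0.0546, beside 1.66) and -1.37 for Smad7 (0.0514, beside -1.72). The part of the run in the results was not tested. Calls are therefore also given against the PBS-liposome high-flow libraries, one of which, replicate 2, lay toward the low-flow libraries in the genes described next.

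**Figure D1:**
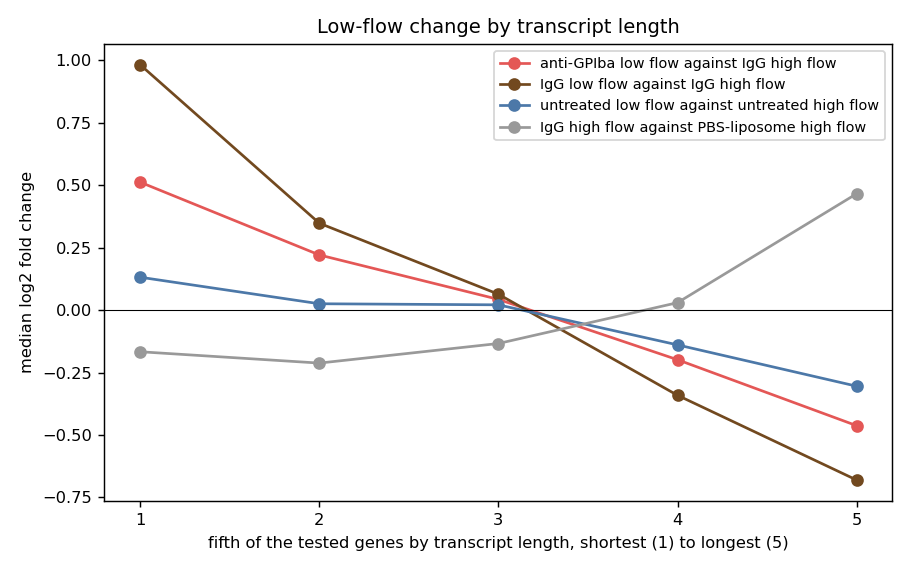
Median log2 fold change (vertical axis) of the tested genes split into 5 bins by effective transcript length (horizontal axis), one line a comparison. The change without platelets runs from 0.51 in the shortest bin to -0.46 in the longest.

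Of 13401 genes tested, 1032 (7.7%) differed between anti-GPIba low flow and IgG high flow at an adjusted p under 0.05 (edgeR), 441 of them higher (3.29%) and 591 lower (4.41%) at low flow. With upper-quartile scaling, which moved the median of all genes by 0.14 on the log2 scale, the split was 602 higher and 447 lower. With IgG at low flow against the same high-flow libraries, 5422 genes (40.5%) were called, or 2141 without IgG low-flow replicate 2 and 3581 without IgG high-flow replicate 1. The count without platelets fell whichever library of the 2 groups was left out, each time leaving a group with a single library. It was 57 or 1 without anti-GPIba replicate 1 or 2, and 7 or 528 without IgG high-flow replicate 1 or 2, and against the PBS-liposome high-flow libraries it was 228 (1.7%), 133 higher (0.992%) and 95 lower (0.709%), with 100 higher (0.746%) and 75 lower (0.56%) genes called against both high-flow groups. Dhh was the gene left without anti-GPIba replicate 2. On simulated counts of this comparison, 14.3% of genes changed 2-fold, 72.6% changed 4-fold and 95.3% changed 8-fold were recovered, so genes that were not called may still have changed. The changed genes were drawn above a minimum mean level, so these rates do not cover genes of lower level.

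To ask which low-flow changes remained, genes changed by low flow were first chosen in untreated mice, whose pools share no library with the treated mice. Low flow against high flow there gave 5491 called genes of 11546 tested (47.6%), 2790 higher (24.2%) and 2701 lower (23.4%), and 3488 genes called with at least 2-fold change were tested in the treated mice. Of the 1936 of these that were higher at low flow, 143 (7.39%, beside 3.29% of all genes) were called higher without platelets and 14 (0.723%) lower. Of the 1552 that were lower at low flow, 197 (12.7%, beside 4.41% of all genes) were called lower and 12 (0.773%) higher. Under IgG, 1353 (69.9%) of the first list were called higher and 852 (54.9%) of the second lower, where 22.8% and 17.7% of all genes were called in those directions. The median log2 fold change of the first list was 0.33 without platelets and 2.06 under IgG, and that of the second -0.22 and -1.25, while over all genes tested it was 0.04 and 0.07. Against PBS-liposome high flow these medians did not remain, at -0.0857 for the first list and -0.0055 for the second, with 67 (3.46%) called higher and 46 (2.96%) called lower where 0.992% and 0.709% of all genes were. Thus 340 genes of 3488 retained a called low-flow change, 32.4% of the genes called higher and 33.3% of those called lower without platelets, and 103 of the 340 were also called against the PBS-liposome libraries (61 higher and 42 lower). This count followed the libraries too, at 30 or 1 without anti-GPIba replicate 1 or 2 and 5 or 179 without IgG high-flow replicate 1 or 2. Whether more rises or more losses remained was not settled either. There were 143 rises and 197 losses as tested, 178 and 145 with upper-quartile scaling, and 67 and 46 against PBS-liposome high flow. With the length trend taken out, in choosing the untreated genes as well, they were 60 and 145. On the lists as first chosen, 57 of the 1936 were then called higher, beside 284 of all 13401 genes. Of the 1552, 161 were then called lower, beside 495 of all genes.

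**Figure D2:**
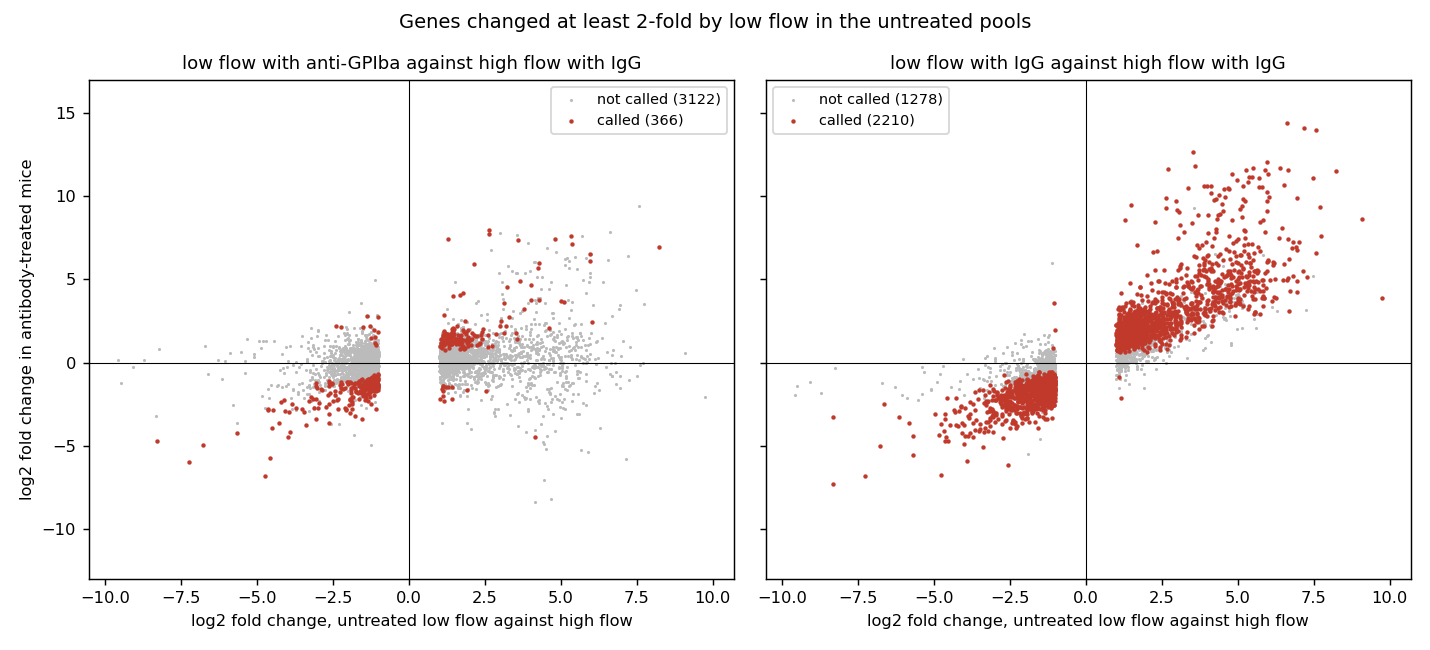
Log2 fold change of the 3488 genes changed at least 2-fold in untreated mice (horizontal axis) against their log2 fold change in antibody-treated mice (vertical axis), without platelets (left) and with IgG (right). Red points passed an adjusted p under 0.05, 366 genes on the left and 2210 on the right.

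The direct test at low flow, anti-GPIba against IgG in a single run, called 2216 genes (16.5%), 811 higher (6.05%) and 1405 lower (10.5%). Of the genes higher at low flow in untreated mice, 903 (46.6%) were lower with anti-GPIba than with IgG and 2 were higher. Of those lower at low flow, 416 (26.8%) were higher and 1 was lower. These genes overlap the 340 retained ones. They include 64 of the 143 retained rises and 24 of the 197 retained losses, and 250 of the 340 were not called in this test. The count of 2216 genes also fell whichever library of the 2 groups was left out, each time leaving a group with a single library. It was 15 or 1 without anti-GPIba replicate 1 or 2, and 83 or 89 without IgG low-flow replicate 1 or 2, the single gene without anti-GPIba replicate 2 being Trib2. Across the 14 treated libraries, the median level of the first list, relative to each gene's mean, was -1.05 and -0.98 log2 units at high flow with IgG, -0.62 and -0.64 with anti-GPIba and 0.83 and 1.08 at low flow with IgG. The anti-GPIba pair lay between, nearer to high flow, and PBS-liposome high-flow replicate 2, at -0.33, lay above it.

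**Figure D3:**
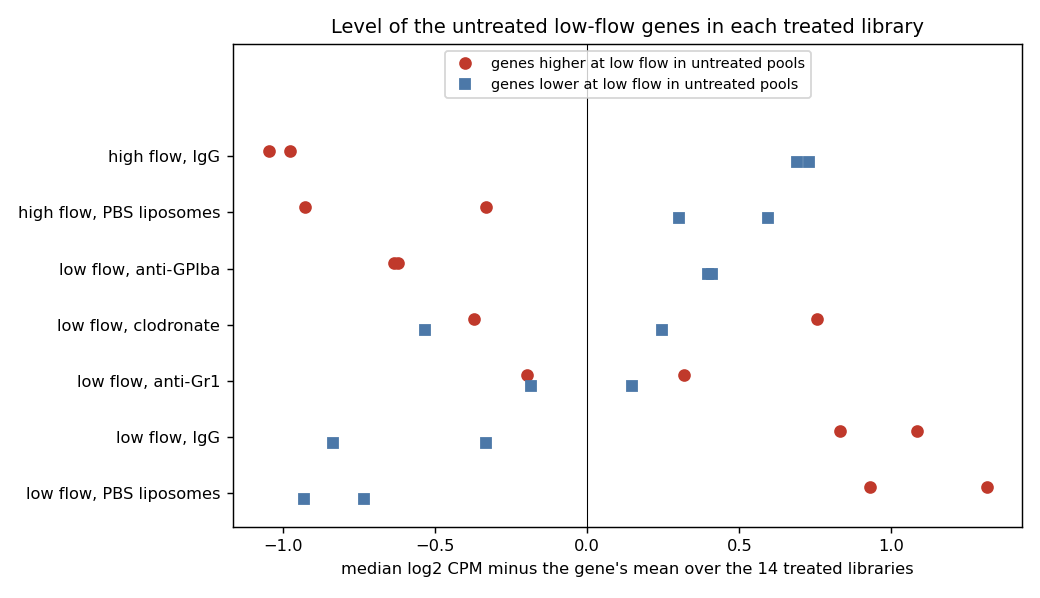
Median level of the genes higher (red circles) and lower (blue squares) at low flow in untreated mice, in log2 CPM (library-size-scaled counts) relative to each gene's mean over the 14 treated libraries (horizontal axis), with 2 libraries a group. The anti-GPIba libraries sit at -0.62 and -0.64 for the genes higher at low flow.

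Many shear-maintained endothelial genes were lower without platelets too. Of 20 genes known to be held up by high shear, 9 were lower (Klf2, Klf4, Nos3, Ptgis, Aqp1, Dhh, Podxl, Pi16 and Adam15) and 2 were higher (Gja4 and Hmox1) at low flow with anti-GPIba, where 4.41% and 3.29% of all genes were called lower and higher, with a median log2 fold change of -1.33 for the list and 0.04 for all genes. Under IgG 14 were lower and 3 higher, with a median of -2.10, where 17.7% and 22.8% of all genes were. At low flow 4 of the 20 were higher and none lower with anti-GPIba than with IgG (Ptgs1, Slco2a1, Aqp1 and Adam15), where 6.05% and 10.5% of all genes were. Of these 11, 4 lower genes and Hmox1 were called against PBS-liposome high flow as well, and 1 lower gene remained called without anti-GPIba replicate 1 or 2 or without IgG high-flow replicate 1, against 6 without IgG high-flow replicate 2. Klf2, the shear-induced transcription factor (chr8:74842932-74845555, build mm9), was at 67.02 and 67.8 FPKM with anti-GPIba and 688 and 983 FPKM at high flow with IgG. Both anti-GPIba values lay far below both high-flow values, at a log2 fold change of -3.63 ± 0.55 (SE) (edgeR, adjusted p = 0.0119), and within the range of the low-flow IgG libraries, at 101 and 22.8 FPKM. The anti-GPIba and IgG low-flow groups were not called different (log2 difference 0.12 ± 0.50 (SE), adjusted p = 0.879), and Klf2 was also lower than in PBS-liposome high flow, with a log2 fold change of -2.64 (adjusted p = 0.0346).

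Klf4, the related factor (chr4:55540013-55545347), was at 8.73 and 14 FPKM against 43.8 and 74.8 FPKM at high flow. The groups did not overlap, with a log2 fold change of -2.38 ± 0.56 (SE) (edgeR, adjusted p = 0.0315), but the call was lost against PBS-liposome high flow (-1.05, adjusted p = 0.356). Nos3, the endothelial nitric oxide synthase (chr5:23870628-23890292), was at 187 and 168 FPKM against 531 and 418 FPKM. Its log2 fold change was -1.42 (edgeR, adjusted p = 0.0149), and the call held against PBS-liposome high flow (adjusted p = 0.0414). Dhh, desert hedgehog, a secreted hedgehog ligand (chr15:98723462-98728971), had the smallest adjusted p of the list, with 42.1 and 31.8 FPKM against 218 and 206 FPKM. Its log2 fold change of -2.52 ± 0.20 (SE) (edgeR, adjusted p = 0.000644) stood beside -2.34 under IgG and -2.62 in untreated mice, and Dhh was called with any one of the 4 libraries left out and against PBS-liposome high flow (-2.55, adjusted p = 0.000577).

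Podxl, a sialomucin of the luminal membrane, was at 34.5 and 36.6 FPKM with anti-GPIba and 246 and 252 FPKM at high flow. Pi16, a peptidase inhibitor whose RNA is also abundant in fibroblasts, was at 25.7 and 30.3 FPKM against 200.3 and 157 FPKM. Adam15, a membrane metalloprotease, was at 105 and 81.7 FPKM against 215 and 225 FPKM. In each of the 3 the groups were apart, with log2 fold changes of -2.81, -2.67 and -1.24, and of these Adam15 alone was called against PBS-liposome high flow (adjusted p = 0.0288 by edgeR, beside 0.122 and 0.0891). Aqp1, a water channel, was at 99.2 and 153 FPKM with anti-GPIba, between 439 and 330.0 FPKM at high flow and 63.5 and 32.1 FPKM at low flow with IgG, and was called in both contrasts (-1.61 and 1.40 on the log2 scale, edgeR, adjusted p = 0.0328 and 0.0371). Against PBS-liposome high flow, at 143 and 117 FPKM, Aqp1 was not called (adjusted p = 0.973).

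Of the 197 retained losses, 172 were not called between anti-GPIba and IgG at low flow. These were ranked by the smaller of the changes in untreated and platelet-depleted mice. With at least 5 FPKM, the most marked were Serpina1b, Klk10, Serpina1d, Prrt4, Vipr1, Spock2, Klf2 and Zbtb7c. Klk10, a secreted kallikrein-related peptidase (chr7:51036424-51040780), was at 26.4 and 29.96 FPKM against 911 and 839.9 FPKM at high flow. That is a log2 fold change of -4.96 ± 0.82 (SE) (edgeR, adjusted p = 0.0135), beside -6.77 in untreated mice, and it was called against PBS-liposome high flow too (-4.45, adjusted p = 0.0261). Vipr1, a receptor for vasoactive intestinal peptide, was at 1.53 and 0.745 FPKM against 21.4 and 29.3 FPKM, and Prrt4, a membrane protein of little known role, at 4.26 and 4.29 FPKM against 82.4 and 77.9 FPKM. Neither pair of groups overlapped, but neither call held against PBS-liposome high flow (edgeR, adjusted p = 0.106 and 0.0706). Serpina1b and Serpina1d, which encode alpha-1-antitrypsin, belong to a cluster of near-identical genes among which the counting may have split fragments, so their separate log2 fold changes of -5.98 and -4.70 are uncertain.

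Notch ligands and a Notch target fell as well. Among 17 Notch and arterial genes, 6 were lower (Notch4, Dll1, Jag1, Jag2, Hes1 and Efnb2) and none higher without platelets by edgeR, where 4.41% and 3.29% of all genes were called lower and higher, with a median of -1.35. DESeq2 called 10 lower and 2 higher on the 2 groups and 11 lower and 2 higher on all. With 1 library left out, 3 stayed called without IgG high-flow replicate 2 and none without any of the other 3, where 9 were lower at an unadjusted p under 0.05 in edgeR. Dll1, a Notch ligand (chr17:15504318-15513836), was at 13.2 and 10.8 FPKM against 60.1 and 66.6 FPKM at high flow, and Hes1, a transcription factor induced by Notch (chr16:30064470-30067882), at 10.03 and 13.9 FPKM against 49.9 and 66.4 FPKM. Both pairs of groups were apart, with log2 fold changes of -2.40 ± 0.42 (SE) and -2.28 ± 0.37 (SE) (edgeR, adjusted p = 0.0137 and 0.0135), and these 2 were the members also called against PBS-liposome high flow (adjusted p = 0.0266 and 0.0245). Jag1, another ligand, was at 10.8 and 9.15 FPKM against 32.8 and 41.2 FPKM, and Efnb2, the ephrin that marks arteries, at 47.8 and 39.95 FPKM against 119 and 134 FPKM. Dll4, the ligand of sprouting endothelium, ran the other way in value, at 24.2 and 14.4 FPKM against 8.12 and 4.36 FPKM, and was not called (log2 fold change 1.63, edgeR, adjusted p = 0.0746).

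In the BMP and TGF-beta list, 4 of 21 tested genes were lower (Smad7, Id1, Tgfb1 and Tgfb2) and none higher by edgeR, where 4.41% and 3.29% of all genes were, with a median of -0.06. DESeq2 on the 2 groups called 7 lower and 4 higher, 2 were lower with the length trend taken out, and 1 without IgG high-flow replicate 2 and none without any of the other 3 libraries. Id1, a BMP target, was at 55.9 and 71.5 FPKM against 165 and 170.0 FPKM at high flow, and Tgfb1, the growth factor, at 6.78 and 5.402 FPKM against 31.1 and 28.96 FPKM. Both also lay below the low-flow IgG libraries, at 86.5 and 113 FPKM and 16.8 and 11.2 FPKM, without a call there (edgeR, adjusted p = 0.142 and 0.0700). No member of the list was called against PBS-liposome high flow (6 higher and 1 lower at an unadjusted p under 0.05 in edgeR), and for Smad7, an inhibitor of TGF-beta signalling, that comparison changed sign (-1.72 against IgG and 0.36 against PBS liposomes). Under IgG 8 of the list were lower and 1 higher (median -1.04), beside 17.7% and 22.8% of all genes. In untreated mice 9 of 17 were lower and 2 higher (median -0.73), beside 23.4% and 24.2%. At low flow 6 were higher and 1 was lower with anti-GPIba than with IgG (median 0.78), beside 6.05% and 10.5%. Of 19 vasoactive genes, 4 were lower by edgeR (Nos3, Ptgis, Ace and Calcrl), where 4.41% of all genes were, with 9 lower and 2 higher by DESeq2 on the 2 groups. With 1 library left out, 1 was lower without IgG high-flow replicate 2 and none without any of the others. Calcrl, the receptor of calcitonin gene-related peptide and adrenomedullin, was at 43.3 and 36.8 FPKM against 82.2 and 95.8 FPKM and 24.6 and 18.2 FPKM at low flow with IgG, and it was called against IgG high flow (-1.15, edgeR, adjusted p = 0.0176), PBS-liposome high flow (-1.56, adjusted p = 0.0154) and IgG low flow (0.91, adjusted p = 0.0313). With the length trend taken out, Calcrl was called neither against IgG high flow (-0.75, adjusted p = 0.117) nor against IgG low flow (0.70, adjusted p = 0.0837).

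Of the 143 retained rises, 78 were not called between anti-GPIba and IgG at low flow. By the same ranking, and with at least 5 FPKM, the most marked of those 78 were Ctgf, Plac8, Atp6v0d2, Hmox1, Gadd45a, Grap, 8430408G22Rik and Frzb. Ctgf, a matricellular protein and YAP and TAZ target (chr10:24315248-24318489), was at 1241 and 1322 FPKM with anti-GPIba and 63 and 128 FPKM at high flow with IgG. The groups did not overlap (log2 fold change 3.74 ± 0.84 (SE), edgeR, adjusted p = 0.0262), and Ctgf was 24.7 and 61.2 FPKM in PBS-liposome high flow (log2 fold change 4.90, adjusted p = 0.0265). At low flow with IgG it was at 2692 and 2440.0 FPKM, above both anti-GPIba values, a difference that was not called (adjusted p = 0.354). In 15 tested YAP and TAZ targets edgeR called Ctgf, where 3.29% of all genes were called higher, and no other member, while DESeq2 called 1 higher and 4 lower on the 2 groups and 2 higher on all. Cyr61, its close relative, was at 551 and 697 FPKM with anti-GPIba, 605 and 984 FPKM at high flow and 3774 and 3299 FPKM at low flow with IgG.

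Hmox1, heme oxygenase 1 (chr8:77617490-77624495), was at 16.4 and 22.9 FPKM against 1.497 and 4.49 FPKM at high flow. The rise of 2.71 ± 0.43 (SE) on the log2 scale (edgeR, adjusted p = 0.0124) stood beside 3.09 under IgG and 3.30 in untreated mice, and it was called against PBS-liposome high flow (adjusted p = 0.0442). Gadd45a, a growth arrest and DNA damage gene, was at 34.03 and 33.6 FPKM against 9.84 and 2.08 FPKM, and Frzb, a secreted Wnt antagonist, at 37.4 and 31.6 FPKM against 7.84 and 9.35 FPKM. Grap, an adaptor protein, was at 24.6 and 23.4 FPKM against 6.46 and 4.05 FPKM. All 3 pairs were apart, with log2 fold changes of 2.51, 2.00 and 2.19, and Grap alone of the 3 was called against PBS-liposome high flow (edgeR, adjusted p = 0.0414, beside 0.112 and 0.0562).

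Among endothelial markers, Emcn, a sialomucin most abundant in veins and capillaries (chr3:137004031-137095149), was at 216 and 222 FPKM against 46.6 and 91.95 FPKM, and the gap junction gene Gja4 (chr4:126988665-126991283) at 518 and 569.9 FPKM against 211 and 106 FPKM. They rose by 1.66 and 1.78 on the log2 scale (edgeR, adjusted p = 0.0280 and 0.0176) and were not called against PBS-liposome high flow (adjusted p = 0.121 and 0.139). Edn1, the vasoconstrictor endothelin 1, was at 299 and 397 FPKM against 75.5 and 124 FPKM and missed the threshold against IgG high flow (log2 fold change 1.80 ± 0.50 (SE), edgeR, adjusted p = 0.0509) while passing it against PBS-liposome high flow (2.56, adjusted p = 0.0348). The plot of expression in each library shows these genes by library.

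**Figure D4:**
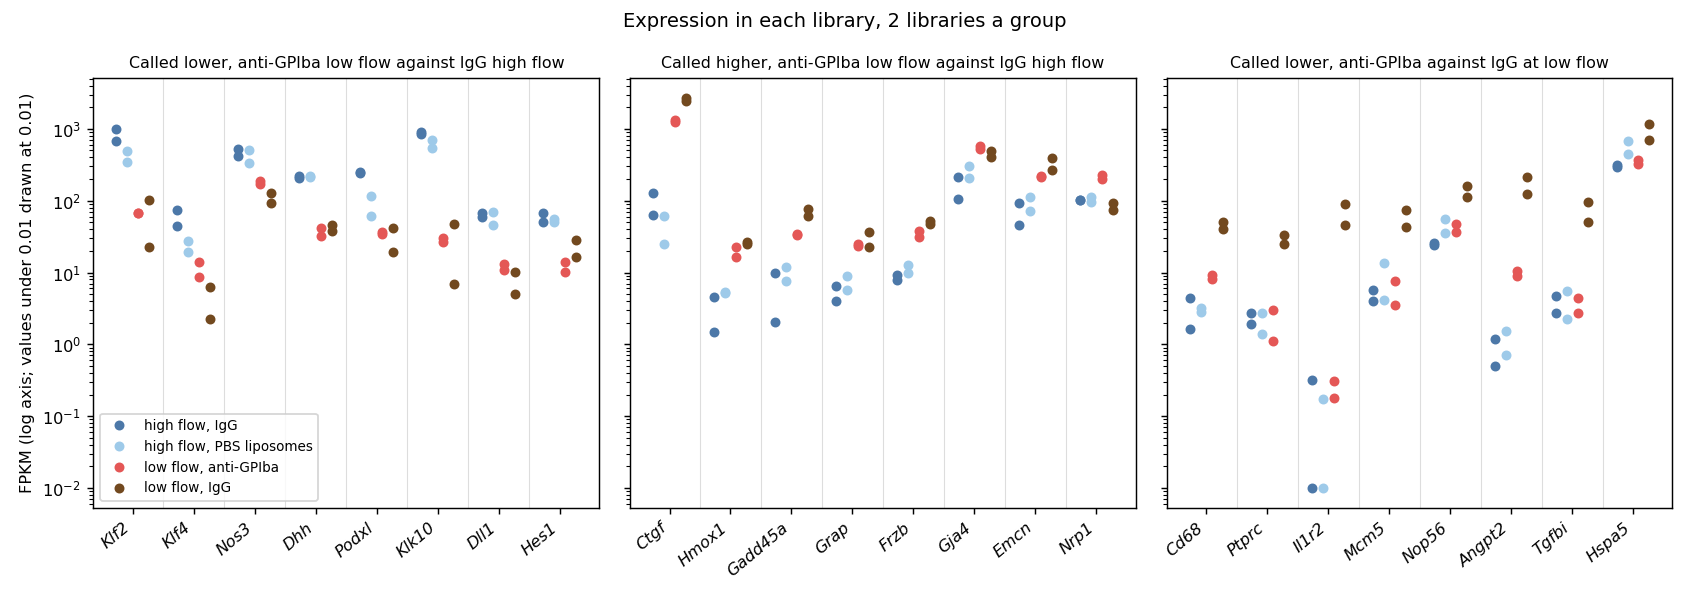
FPKM (log axis) of 24 genes in 8 libraries, 2 a group, for genes called lower (left) or higher (middle) in anti-GPIba low flow against IgG high flow, and genes called lower in anti-GPIba against IgG at low flow (right). In the left panel all anti-GPIba points lie below the IgG high-flow points, and in the right panel all lie below the IgG low-flow points.

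Ribosomal protein genes were the list with the most calls. Of 77 tested, 62 (beside 3.29% of all genes) were higher and none lower at low flow without platelets, with a median log2 fold change of 1.27, beside 2.21 under IgG and 1.67 in untreated mice. Rps19, a protein of the small subunit, was at 218 and 343 FPKM with anti-GPIba, 107 and 78.7 FPKM at high flow and 456 and 505 FPKM at low flow with IgG. Against PBS-liposome high flow 54 were higher, and at low flow 51 were lower with anti-GPIba than with IgG, where 0.992% and 10.5% of all genes were. These transcripts are short, with a median effective length of 559 bases against 2617 for all genes, and when each library's trend with length was taken out, a step chosen after seeing the data, 7 of the 77 were called higher and the median was 0.46. The list was put together after the rises were seen, so its counts describe it only, and ribosomal protein genes have many near-identical pseudogenes among which fragments may be split. Without anti-GPIba replicate 1 or 2 the count was 16 or 0 (76 or 66 at an unadjusted p under 0.05), and without IgG high-flow replicate 1 or 2 it was 0 or 11 (74 or 66). By contrast, of 24 genes that build ribosomes none was called by edgeR against IgG high flow, with a median of 0.63. At an unadjusted p under 0.05 in edgeR 6 were higher, and DESeq2 called 8 higher on the 2 groups and 2 on all. Under IgG 20 were higher, and 23 in untreated mice, where 22.8% and 24.2% of all genes were.

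Of 18 adhesion molecules and chemokines of activated endothelium, Selp and Cx3cl1 were called higher without platelets, where 3.29% of all genes were, against 9 under IgG, where 22.8% were, and the list's medians were 1.06 and 1.84. The contrast of 2 with 9 depends on the tool, since DESeq2 called 6 higher and 1 lower without platelets, on the 2 groups and on all, and 9 were higher at an unadjusted p under 0.05 in edgeR. With any 1 of the 4 libraries left out edgeR called none, with 7 higher at an unadjusted p under 0.05. Selp, P-selectin, which endothelium and platelets both carry (chr1:166045395-166080157), was at 570.1 and 579.9 FPKM with anti-GPIba and 304 and 307 FPKM at high flow (log2 fold change 0.91 ± 0.21 (SE), edgeR, adjusted p = 0.0280), and the anti-GPIba libraries also lay above the low-flow IgG libraries, at 413 and 436 FPKM, without a call (adjusted p = 0.150). Cx3cl1, fractalkine, was at 60.6 and 57.6 FPKM against 26.6 and 17.9 FPKM. No call held against PBS-liposome high flow (edgeR, adjusted p = 0.104 and 0.375), where 3 of the 18 were higher and 1 lower at an unadjusted p under 0.05. Icam1, the ligand of leukocyte integrins, was at 493 and 511 FPKM with anti-GPIba, 253 and 206 FPKM at high flow and 272 and 208 FPKM at low flow with IgG. It was called against IgG low flow (1.07, edgeR, adjusted p = 0.0449) and just missed the threshold against IgG high flow (1.13, adjusted p = 0.0541). Of 15 NF-kB genes, Relb, Nfkbib and Nfkbie were called higher, where 3.29% of all genes were, with log2 fold changes of 0.91, 1.32 and 1.37 (7 were higher by DESeq2), and none of the 3 was called against PBS-liposome high flow. Without IgG high-flow replicate 2 the count was 2, and it was 0 without any of the other 3 libraries (6 or 7 at an unadjusted p under 0.05 in edgeR).

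A few genes rose at low flow with anti-GPIba above both IgG groups. Nrp1, a co-receptor for VEGF and semaphorins (chr8:130882973-131029362), was at 225 and 204 FPKM with anti-GPIba, 104 and 101 FPKM at high flow and 92.1 and 75.3 FPKM at low flow with IgG. It was called against IgG high flow (1.06 ± 0.22 (SE), edgeR, adjusted p = 0.0224), PBS-liposome high flow (adjusted p = 0.0419) and IgG low flow (1.35, adjusted p = 0.0143), with an untreated low-flow change of 0.07 that was not called. Cyp4b1, a cytochrome P450 of fatty acids and xenobiotics (chr4:115297303-115320322), singled out after its values were seen, was at 860.3 and 973 FPKM with anti-GPIba, 211 and 297 FPKM at high flow and 216 and 176 FPKM at low flow with IgG. It was called in the same 3 comparisons (1.85, 2.34 and 2.22 on the log2 scale, edgeR, adjusted p = 0.0302, 0.0277 and 0.0210) and was lower at low flow in untreated mice (-1.03, adjusted p = 0.0285). In all, 26 genes of the untreated list were called in the opposite direction without platelets, 2 of them against both high-flow groups.

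Most leukocyte markers that rose at low flow were not called without platelets. Of 18 macrophage and monocyte markers, 15 were higher under IgG and 16 in untreated mice, where 22.8% and 24.2% of all genes were. At low flow 11 were lower with anti-GPIba than with IgG, beside 10.5% of all genes. Without platelets 1 (Tyrobp) was called higher against IgG high flow, where 3.29% of all genes were. The low count rested on IgG high-flow replicate 2, without which 6 were called higher (12 at an unadjusted p under 0.05 in edgeR), and DESeq2 on all groups called 3. Cd68, a lysosomal protein of macrophages, was at 8.18 and 9.37 FPKM with anti-GPIba, 1.62 and 4.48 FPKM at high flow and 50.3 and 40.8 FPKM at low flow with IgG. Ptprc (CD45), which marks all leukocytes, was at 2.97 and 1.098 FPKM, 1.92 and 2.74 FPKM and 32.9 and 24.7 FPKM in the same order. The anti-GPIba and high-flow values overlapped for Ptprc, and both genes were lower with anti-GPIba than with IgG at low flow, with log2 differences of -2.37 ± 0.42 (SE) and -3.83 ± 0.57 (SE) (edgeR, adjusted p = 0.0157 and 0.0113). Tyrobp, a signalling adaptor of myeloid cells, was at 10.6 and 16.8 FPKM, above 1.56 and 3.48 FPKM at high flow (log2 fold change 2.43, adjusted p = 0.0271) and below 206 and 155 FPKM with IgG at low flow, and it was not called against PBS-liposome high flow (adjusted p = 0.118) or with the length trend taken out (1.37, adjusted p = 0.141). The summed level of the list was 230 and 349 FPKM with anti-GPIba, 78.8 and 301 FPKM at high flow, the higher value being that of replicate 2, and 2605 and 2427 FPKM at low flow with IgG.

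Of 14 neutrophil markers edgeR called none against IgG high flow (1 higher at an unadjusted p under 0.05, and none or 1 by DESeq2 on the 2 groups or on all), with 9 higher under IgG and 9 lower with anti-GPIba than with IgG, where 22.8% and 10.5% of all genes were. Il1r2, the decoy receptor of interleukin 1, was at 0.1801 and 0.309 FPKM with anti-GPIba, 0 and 0.323 FPKM at high flow and 88.7 and 46.5 FPKM at low flow with IgG. Il1b, the cytokine itself, was at 0.684 and 0.447 FPKM with anti-GPIba, at 0 in both IgG high-flow libraries and at 182 and 46.6 FPKM at low flow with IgG, so IgG low flow was at least 1090-fold higher than high flow and anti-GPIba low flow at least 5.58-fold higher, each taken against 3 counts over the high-flow pair. The change without platelets was not called (edgeR, adjusted p = 0.177), and PBS-liposome high flow, at 0.245 and 1.06 FPKM, overlapped the anti-GPIba libraries. At low flow its log2 difference, anti-GPIba against IgG, was -7.64 ± 1.05 (SE) (edgeR, adjusted p = 0.00982). Of 8 MHC class II genes, H2-Ab1 was called higher without platelets, at 79.8 and 88.3 FPKM against 23.8 and 12.2 FPKM (2.23, adjusted p = 0.0477, and 0.441 against PBS liposomes), where all 8 were called under IgG, and 5 were lower with anti-GPIba than with IgG, beside 3.29%, 22.8% and 10.5% of all genes in these 3 comparisons. DESeq2 called 5 of the 8 higher without platelets, on the 2 groups and on all, and 6 were higher at an unadjusted p under 0.05 in edgeR. The smooth muscle gene Acta2 was at 1999 and 2316 FPKM with IgG at low flow, 233 and 347 FPKM with anti-GPIba and 149.6 and 294 FPKM at high flow, while Myh11, the smooth muscle myosin, was at 1.52 and 1.099 FPKM, 1.78 and 4.17 FPKM and 2.55 and 3.57 FPKM.

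None of 28 DNA replication genes was called by edgeR against IgG high flow (1 lower at an unadjusted p under 0.05, and 3 higher and 1 lower by DESeq2 on the 2 groups), with a median of 0.48, where 26 were higher under IgG and 28 in untreated mice, and 12 were lower with anti-GPIba than with IgG, beside 22.8%, 24.2% and 10.5% of all genes. Mcm5, a subunit of the replicative helicase, was at 7.74 and 3.54 FPKM with anti-GPIba, 5.63 and 3.99 FPKM at high flow and 42.5 and 75.2 FPKM at low flow with IgG. The anti-GPIba and high-flow libraries overlapped, and the difference at low flow was -3.38 ± 0.92 (SE) on the log2 scale (edgeR, adjusted p = 0.0357). Of 30 mitosis genes none was called by edgeR without platelets (1 lower at an unadjusted p under 0.05, 9 lower by DESeq2 on the 2 groups and none on all), 9 were higher under IgG and 30 in untreated mice, and 6 were lower with anti-GPIba than with IgG. The 9 under IgG are a share not far from the 22.8% of all genes. Against PBS-liposome high flow none was called, but 14 were lower at an unadjusted p under 0.05 in edgeR, with a median of -3.66. The summed level in that control was 23.4 FPKM in replicate 1 and 613 FPKM in replicate 2, beside 35.1 and 24.4 FPKM with anti-GPIba. The largest falls at low flow were those of Esco2, Fam83d, Mxd3, Prnd, Trem1, Ska1, Mefv and Casc5. Esco2, which ties sister chromatids together, and Fam83d, a spindle protein, had 0 counts in both anti-GPIba libraries, so they were at least 429-fold and 363-fold lower than with IgG, taken against 3 counts over the anti-GPIba pair. Esco2 was at 1.44 and 0.478 FPKM at high flow, so its anti-GPIba level lay below that as well, at least 32.4-fold, without a call (edgeR, adjusted p = 0.145).

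Of 21 angiogenic and tip cell genes Nrp1 was called higher without platelets by edgeR, against 11 under IgG, and 5 were lower with anti-GPIba than with IgG, where 3.29%, 22.8% and 10.5% of all genes were, so the single call is near the background. DESeq2 called 6 higher and 3 lower on the 2 groups and 7 higher and 4 lower on all, and 6 were higher and 4 lower at an unadjusted p under 0.05 in edgeR. Angpt2, the destabilising ligand of the Tie2 receptor (chr8:18690263-18741562), was at 10.7 and 8.97 FPKM with anti-GPIba, 1.202 and 0.498 FPKM at high flow and 124 and 212 FPKM at low flow with IgG. The anti-GPIba values lay above both high-flow values without passing the threshold (log2 fold change 3.53 ± 0.99 (SE), edgeR, adjusted p = 0.0521) and were lower than with IgG (log2 difference -4.10, adjusted p = 0.0263). Angptl4, a secreted inhibitor of lipoprotein lipase, passed both tests, at 4.94 and 9.09 FPKM against 0.891 and 0.176 FPKM at high flow (3.72, adjusted p = 0.0274) and 80.8 and 104 FPKM at low flow with IgG (-3.72, adjusted p = 0.0210), but PBS-liposome high flow, at 5.68 and 12.1 FPKM, lay within or above the range of the anti-GPIba libraries. Tgfbi, a TGF-beta-induced matrix protein, was at 4.45 and 2.69 FPKM, 2.699 and 4.68 FPKM and 95.7 and 50.2 FPKM in the order anti-GPIba, high flow and IgG low flow. The anti-GPIba and high-flow libraries overlapped, and Tgfbi was lower with anti-GPIba than with IgG (log2 difference -4.35, edgeR, adjusted p = 0.00595).

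Of 20 unfolded protein response genes, Xbp1, a transcription factor of that response, was the one called higher without platelets, at 275 and 367 FPKM against 163 and 159 FPKM (1.00, edgeR, adjusted p = 0.0253, and 0.201 against PBS liposomes), against 10 under IgG, and 9 were lower with anti-GPIba than with IgG, where 3.29%, 22.8% and 10.5% of all genes were. DESeq2 on the 2 groups called 2 higher and 5 lower. Hspa5, the main chaperone of the endoplasmic reticulum, was at 320.5 and 371 FPKM with anti-GPIba, 294 and 318 FPKM at high flow and 692 and 1184 FPKM at low flow with IgG. Its difference at low flow was -1.44 ± 0.41 (SE) on the log2 scale (edgeR, adjusted p = 0.0384). Pgk1 and Eno1, glycolytic enzymes, and Ldha, which makes lactate, were not called against high flow (edgeR, adjusted p = 0.685, 0.576 and 0.674) and were lower than with IgG at low flow, with log2 differences of -2.07, -1.48 and -1.25 (adjusted p = 0.0334, 0.0310 and 0.0336).

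Some losses at low flow also came back. Of 14 clock genes none was called by edgeR against IgG high flow (1 higher and 2 lower at an unadjusted p under 0.05, and 2 lower by DESeq2), with a median of -0.31, while 8 were lower under IgG and 9 in untreated mice, and 6 were higher with anti-GPIba than with IgG at low flow, where 17.7%, 23.4% and 6.05% of all genes were. Per2, a repressor in the clock, was at 13.4 and 10.03 FPKM with anti-GPIba, 21.4 and 32.02 FPKM at high flow and 5.44 and 3.63 FPKM at low flow with IgG, between the others in value (adjusted p = 0.0975 and 0.0463 against each, edgeR). Among the genes that rose back most were Cyp2e1, Inmt, Dpep1, Adra2a, Slco2b1, Clec12b, Tnfaip8l3 and Fmo2. Adra2a, an adrenergic receptor, was at 29.2 and 19.3 FPKM with anti-GPIba, 39.96 and 19.3 FPKM at high flow and 4.71 and 0.694 FPKM at low flow with IgG (3.17 ± 0.82 (SE) on the log2 scale at low flow, edgeR, adjusted p = 0.0334). For Cyp2e1, an enzyme of liver and fat, the anti-GPIba values were 6.92 and 72.05 FPKM, and the higher one was the replicate with the higher fat cell genes.

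**Figure D5:**
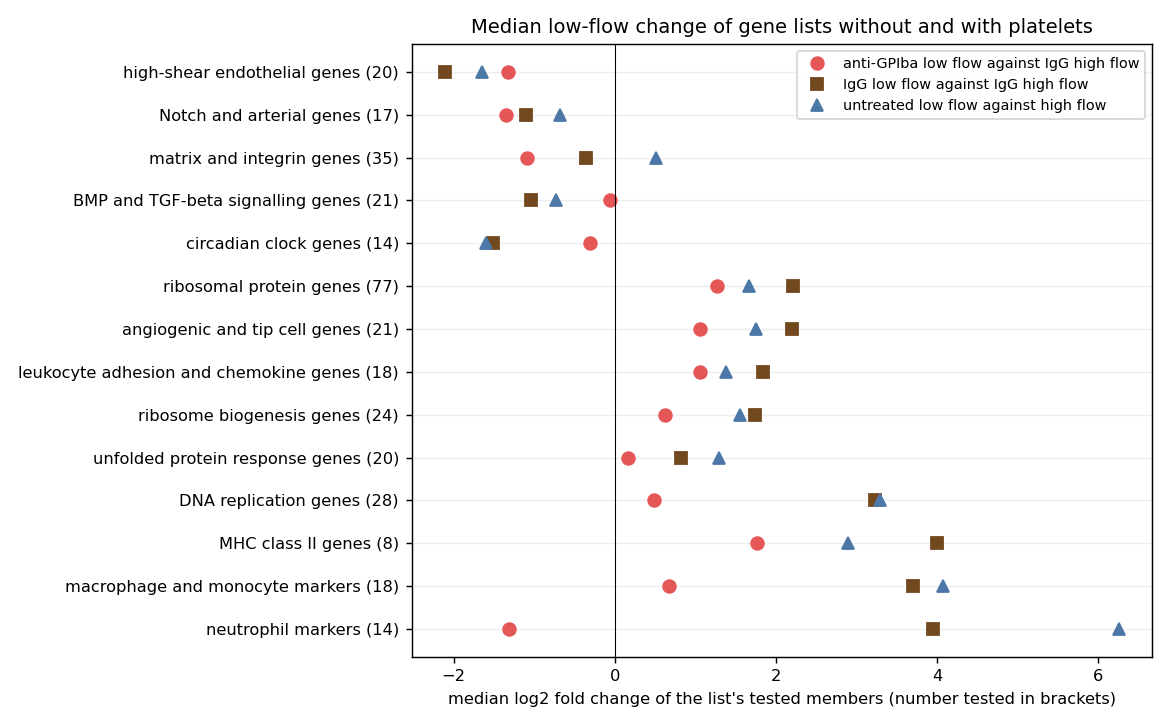
Median log2 fold change (horizontal axis) of 14 gene lists, with the number of tested members in brackets, without platelets (circles), with IgG (squares) and in untreated mice (triangles). The high-shear and Notch lists lie at -1.33 and -1.35 without platelets, while the DNA replication and macrophage lists lie at 0.48 and 0.67 against 3.23 and 3.71 with IgG.

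Some matrix genes were lower than IgG high flow, but not called against the other control group. Of 35 matrix and integrin genes 10 were called lower (Fn1, Col4a1, Col4a2, Col1a1, Col1a2, Col3a1, Col5a1, Fbln2, Eln and Fbn1) and none higher, with a median of -1.09. Of all genes 4.41% and 3.29% were. DESeq2 called 19 lower and 1 higher on the 2 groups, and 17 lower and 1 higher on all. Under IgG, against the same high-flow libraries, 9 were higher and 8 lower (median -0.3507), beside 22.8% and 17.7% of all genes. In untreated mice 16 of 33 were higher and 5 lower (median 0.51), beside 24.2% and 23.4%. At low flow 1 was higher and 9 were lower with anti-GPIba than with IgG (median -1.003), beside 6.05% and 10.5%. Fn1, fibronectin (chr1:71632094-71699774), was at 35.3 and 20.2 FPKM with anti-GPIba and 108 and 142 FPKM at high flow with IgG (-2.17 ± 0.52 (SE) on the log2 scale, edgeR, adjusted p = 0.0324), but PBS-liposome high flow was at 42.8 and 20.8 FPKM, overlapping the anti-GPIba values. None of the 35 was called by edgeR against PBS-liposome high flow (2 higher and 14 lower at an unadjusted p under 0.05). Eln, elastin, was at 105 and 123 FPKM against 1822 and 1075 FPKM and 762 and 512 FPKM in the 2 high-flow groups, and lay below all 4 of those libraries (adjusted p = 0.0149 and 0.0844). The median effective length of these transcripts was 4966 bases, and with the length trend taken out 9 of the 35 were lower than IgG high flow, with a median of -0.70. Without anti-GPIba replicate 1 or 2 the count of 10 was 1 or 0, and without IgG high-flow replicate 1 or 2 it was 0 or 3. Of 12 fibroblast and adventitial genes, 5 were lower as well and none higher by edgeR (Pi16, Mfap5, and Col1a1, Col1a2 and Col3a1 of the matrix list), while DESeq2 called 5 lower and 2 higher, with a list median of 0.17, and Mfap5, a microfibril protein, was the one also called against PBS-liposome high flow (log2 fold change -1.61, edgeR, adjusted p = 0.0398). The summed level of these 12 was 1619 and 2274 FPKM with anti-GPIba and 2064 and 2100 FPKM at high flow with IgG, so the groups overlapped, and its part in the matrix result was not tested. With 1 library left out 5 were still lower at an unadjusted p under 0.05 in edgeR, but 1 was called without IgG high-flow replicate 2 and none without any of the other 3.

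Among the 10 largest rises were Olr1, Itpka, Rab20, Slamf9, Hist1h4d, Klhl35, Acta1, 8430408G22Rik and Inpp4b, and the first 5 of these had 0 counts in both IgG high-flow libraries. Olr1, a receptor for oxidised LDL, was at 0.788 and 4.004 FPKM with anti-GPIba, at least 68.9-fold above high flow, taken against 3 counts over the high-flow pair, and at 1.47 and 0.832 FPKM at low flow with IgG. In PBS-liposome high flow it was at 0.127 and 0.427 FPKM, and the difference was not called (log2 fold change 3.10, edgeR, adjusted p = 0.200). Of the 9 rises named here, 8430408G22Rik was the one called against that control (4.54, adjusted p = 0.0265). Acta1, the skeletal muscle actin, was at 1.47 and 36.3 FPKM, and the high value belongs to the library with the other muscle genes. The 10 largest falls were Ret, Serpina1b, Hspa12a, Stra6, Arhgef16, Klk10, Serpina1d, Vipr1, Niacr1 and Prrt4. Ret, a receptor tyrosine kinase, was at 0 and 0.0441 FPKM against 5.02 and 3.27 FPKM and was called against both high-flow groups (-7.48 and -6.60 on the log2 scale, edgeR, adjusted p = 0.0135 and 0.0265). Niacr1, the niacin receptor, was at 0 and 0.0885 FPKM against 1.47 and 0.691 FPKM, but PBS-liposome high flow was at 0 in both libraries.

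The other lists gave few calls without platelets, in a comparison that called 3.29% of all genes higher and 4.41% lower. Interferon-stimulated (20 tested), lymphocyte (11), red cell (7), coagulation (13), heat shock (14), fat cell (10) and smooth muscle genes (12) gave none by edgeR, with 0 to 3 members of each at an unadjusted p under 0.05 and 0 to 4 called by DESeq2 on the 2 groups. Of 28 hypoxia and glycolysis genes, Egln1 and Pfkp were higher and Epas1 and P4ha2 lower, and of 25 splicing regulators Celf2 was higher and Mbnl1 and Hnrnpl lower, by edgeR, where 3.29% and 4.41% of all genes were called higher and lower. DESeq2 on the 2 groups called 4 higher and 6 lower of the first list and 2 higher and 3 lower of the second. Celf2, an RNA-binding splicing regulator, was at 6.56 and 6.07 FPKM against 1.31 and 3.05 FPKM at high flow, and Hnrnpl, another, at 15.8 and 18.5 FPKM against 51.4 and 42.2 FPKM (1.53 and -1.45 on the log2 scale, edgeR, adjusted p = 0.0384 and 0.0445). Neither was called against PBS-liposome high flow (adjusted p = 0.455 and 0.474). Of 20 immediate early genes Jund and Dusp1 were lower by edgeR, at -1.02 and -1.74, with 3 higher and 3 lower by DESeq2 on the 2 groups and none called by edgeR with any 1 library left out (2 or 3 lower at an unadjusted p under 0.05), and Jund changed sign against PBS-liposome high flow (0.12).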

How the data were processed

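RNA from carotid intima was sequenced in pooled flushes. Per the submitters' processing notes, the authors aligned the reads with STAR (2.5.1b) to mouse build mm9 and counted genes with RSEM (1.2.15), and the deposited table holds expected counts per gene, which need not be whole. These were rounded here and tested with the quasi-likelihood test of edgeR (4.0.16, R 4.3.3, Benjamini-Hochberg adjustment, threshold 0.05) after its default low-count filter and TMM scaling, in 1 fit of the 14 libraries of treated mice and 1 of the untreated pools. FPKM was computed from counts, effective length and TMM library size. Of 206 value columns, 181 were not used, and 1 of 21675 rows, which named no gene, was left out.

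Depth was 12.3 to 19.0 M expected counts in the treated libraries and 4.06 to 6.79 M in the untreated pools, and sets the precision of low genes. DESeq2 (1.42.0), other scalings and filters, other high-flow controls and left-out libraries were tried as alternatives. The script was tested on simulated counts. Gene positions come from the annotation of mm9.

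The members and the lists were chosen with earlier results of these data known. Genes were named by rule: the 10 largest called changes in each direction with groups apart and at least 1 FPKM, the 8 most marked retained and the 8 most marked lost changes in each direction with at least 5 FPKM, and members of 35 lists. Retained changes were ranked only among genes not called between anti-GPIba and IgG at low flow. Some genes that the rule names are not reported here. Nothing in the labels says whether equal replicate numbers mark shared animals.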

Additional observations from a re-analysis of the deposited data

Results flagged for a closer look

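Pglyrp1, a peptidoglycan recognition protein of neutrophil granules, differed between the antibodies in its response to low flow. It was at 0.1 and 0.591 FPKM at low flow with anti-GPIba, 13 and 6.07 FPKM at low flow with IgG and 2.76 and 3.61 FPKM at high flow with IgG. Its log2 fold change against high flow was -3.15 without platelets (edgeR, adjusted p = 0.0476) and 1.57 with IgG (adjusted p = 0.105), and the difference between them was -4.72 ± 0.874 (SE, adjusted p = 0.0176). Against PBS-liposome high flow, at 2.83 and 2.08 FPKM, its fold change without platelets was -2.77 and was not called (adjusted p = 0.128).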

How the results depend on the processing

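The 1032 genes called in anti-GPIba low flow against IgG high flow became 2585 and 2190 with DESeq2 on the 2 groups and on all groups, 2003 with edgeR on the 2 groups, 228 against PBS-liposome high flow and 1 against its replicate 1 alone, a control chosen after seeing the data. The 2216 called between anti-GPIba and IgG at low flow became 4979, 3683 and 4449 under the first 3 of these. The 340 retained changes became 711, 587, 604, 113 and 1 in the same order, and 205 with the length trend taken out, and the 1319 lost changes, those called in the opposite direction between anti-GPIba and IgG at low flow, became 2590, 2140 and 2345. The 5491 untreated calls became 3517 when a 2-fold change was also asked for. Leaving out 1 library gave 1 to 528 calls without platelets, 2141 to 4231 with IgG, 1 to 89 between antibodies and 4491 to 5583 in untreated pools, with 1 to 364 retained and 1 to 1444 lost changes. Where this leaves 1 library in a group, that library is taken to vary like the others.

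With a replicate block the counts were 1290, 5817 and 3307 for the 3 treated comparisons, with 440 retained and 1887 lost changes. Nothing in the labels says that a number marks shared animals, and replicate differences of the anti-GPIba and IgG high-flow groups had a correlation of 0.03 over genes. Of 100 named changes without platelets, 34 kept their direction and side of the threshold against PBS-liposome high flow, 60 lost the call, 1 gained one and 5 changed sign, to 3.48 for Niacr1, 0.36 for Smad7, 0.12 for Jund, -0.98 for Egln1 and -0.34 for Angptl4. Against its replicate 1 alone 4 of these changed sign, to 3.49 for Niacr1, 0.19 for Smad7, 0.41 for Jund and -1.09 for Egln1. The causes of these shifts were not tested. With 2 libraries a group, changes near 2-fold were mostly not recoverable, and low counts limit genes near 0.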
